A study of Homo sapiens with 24 samples.

Results

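The ribosome biogenesis factors described here are 40 listed human genes whose products transcribe, modify, cut and assemble the RNA of the ribosome. They were chosen by name, as genes of rRNA processing and ribosome assembly. All 40 were found as protein-coding genes among the 57721 genes with a transcript in the tables and are among the 24153 genes tested. Ribosomes are built in the nucleolus, where RNA polymerase I transcribes a long precursor rRNA. Guide RNA-protein particles called snoRNPs modify the precursor (box C/D particles methylate riboses, box H/ACA particles convert uridines to pseudouridine), the small subunit (SSU) processome folds and cleaves it, and further factors assemble and export the 40S and 60S subunits. In cycling cells such as this colon cancer line the genes are expressed at high levels, and MYC, a transcription factor that binds DNA with its partner MAX, is known to raise their transcription.

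RNA of HCT116, a diploid human colorectal cancer cell line, was sequenced from 8 groups of 3 libraries. Without transfection there were wild-type cells (WT), TNRC6A-/- cells, TNRC6B-/- cells and TNRC6AB-/- cells that lack both paralogs. With lipid transfection there were WT and TNRC6AB-/- cells given either siTNRC6C, a pool of duplex RNAs against TNRC6C, or siGL2, a duplex with no target in these cells. TNRC6 proteins are scaffolds of the complex through which microRNAs silence mRNA. The study describes the TNRC6A mutation as a frameshift and the TNRC6B mutation as a large deletion. Each knockout is 1 purchased line, so genotype and the history of that line cannot be told apart, and TNRC6AB-/- cells were seeded more densely for transfection because they grow slowly. Nothing states that the 3 libraries of a group came from separate cultures, so the spread between them may be technical. The p-values use a spread for each gene that is shared by all 8 groups. The relative spread between libraries of a group (BCV, edgeR) was 0.139 to 0.273 without and 0.0521 to 0.145 with transfection. A p-value can thus be too small for groups that vary more than the shared spread, and too large for those that vary less.

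Libraries held 28144290 to 42689320 reads assigned to genes. TNRC6C RNA stood at 53.7 ± 4.24 CPM (read counts scaled to a common library total with TMM, trimmed mean of M-values; mean ± SD, n = 3) in WT siGL2 and 21.04 ± 0.410 in WT siTNRC6C cells, and at 119.8 ± 7.04 and 19.7 ± 1.04 in the same pair of TNRC6AB-/- groups. TNRC6A RNA stood at 118, 95.4 and 121 CPM in the WT libraries, 69.8, 69.7 and 66.4 in TNRC6A-/- and 56.9, 50.2 and 45.9 in TNRC6AB-/- cells, and TNRC6B RNA at 192 ± 9.44, 119.8 ± 6.63 and 93.1 ± 4.67 in WT, TNRC6B-/- and TNRC6AB-/- cells. Colon epithelial markers summed to 1271 to 2803 CPM over all libraries, with VIL1 below 1 CPM in every group, and markers of cells foreign to the line summed to 25.1 to 70.2 CPM in TNRC6AB-/- libraries and 5.45 to 20.4 CPM in the others, with CD3E at or near 0 throughout. In replicate 3 of WT siGL2 the factors and the scaling both differed from replicates 1 and 2, and replicate 1 of TNRC6B-/- and replicate 2 of WT lay far from their groups on principal components. The 3 knockout comparisons share the WT libraries, and both TNRC6AB-/- comparisons against WT siGL2 share those controls with each other and with siTNRC6C in WT cells.

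The 40 genes spanned a wide range of levels. Per length of transcript (TPM, a level that can be compared between genes), the median of the 40 in WT cells was 42.3 TPM, and NPM1, NCL and FBL together made up 50.99% of their summed TPM on average over the 24 libraries. NPM1, the histone-binding nucleolar protein nucleophosmin, stood at 1306, 857 and 1251 TPM in the 3 WT libraries, a mean of 1138 ± 245 (SD, n = 3). NCL, nucleolin, which binds precursor rRNA, had 505, 406 and 455 TPM there, and NOP56, a scaffold of the box C/D snoRNP, had 194, 142 and 165. At the low end UTP20, a large SSU processome component, stood at 7.73, 6.27 and 6.22 TPM. RRP9, a protein of the U3 snoRNP that guides early cleavage, and RRP12, an export factor of the 40S subunit, were the next lowest over the 24 libraries, with WT means of 17.5 ± 1.01 and 24.05 ± 6.81 TPM. Ranked by mean TPM over all libraries, NPM1 was gene 47 of the protein-coding genes and UTP20 gene 7880. The 45 listed copies of NPM1 in the annotation held 0.341% of the reads of NPM1 itself, whereas the readthrough gene PPAN-P2RY11 held 8.72% of those of PPAN and the antisense gene NOP14-AS1 held 12.7% of those of NOP14. The values of PPAN and NOP14 are therefore less certain than those of the other members.

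Promoter sequence from RefSeq (build GRCh38.p14, 250 bases before to 50 after the annotated start of a gene) was at hand for 33 of the 40 genes. The E-box CACGTG, the site that MYC binds together with MAX and which reads the same on both strands, was present in 13 of these 33 (39.4%) and in 1329 of 14882 promoters of protein-coding genes (8.93%). Windows of 30 bases around the E-box, in capitals, are shown for members on which results below turn, each on the strand of its gene, since the box lies close to the start in each. They are FBL (chr19:39846356-39846385, minus strand), UTP20 (chr12:101280083-101280112, plus strand), UTP4 (chr16:69132621-69132650, plus strand), RRP9 (chr3:51941892-51941921, minus strand) and PES1 (chr22:30591880-30591909, minus strand).
FBL: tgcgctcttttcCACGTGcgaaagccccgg
UTP20: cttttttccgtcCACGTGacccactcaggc
UTP4: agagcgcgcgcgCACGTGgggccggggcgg
RRP9: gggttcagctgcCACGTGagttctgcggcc
PES1: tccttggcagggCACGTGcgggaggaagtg
The centre of the box lay 9 bases after the start in FBL and 16 after it in PES1. Other motifs searched on both strands were the NRF1 motif, in 9 of 33 (27.3%) against 8.63% of all promoters, CCGGAAGT of ETS factors, in 6 (18.2%) against 6.36%, TCTCGCGA, in 4 (12.1%) against 1.80%, and the YY1 motif, in 1 (3.03%) against 2.31%. A match describes these letters in this window and does not show binding.

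Across the 8 groups the factors were lowest in untransfected TNRC6AB-/- cells and highest in WT siTNRC6C cells when counts were scaled with TMM. To follow all 40 genes with equal weight, the CPM of each was divided by its mean over the 24 libraries, and the median log2 ratio of the 40 was taken in each library. It was 0.05, -0.07 and 0.05 in the 3 WT libraries and -0.65, -0.66 and -0.53 in TNRC6AB-/-. In WT siGL2 it was 0.33, 0.30 and -0.03, and in WT siTNRC6C 0.53, 0.49 and 0.53. TNRC6AB-/- siGL2 libraries had 0.16, 0.07 and -0.07, and those with siTNRC6C -0.34, -0.39 and -0.31. Within each genotype the siTNRC6C and siGL2 libraries did not overlap, with siTNRC6C the higher in WT and the lower in TNRC6AB-/- cells. The third siGL2 library of each genotype was the lowest of its group. TPM, which is fixed to the same total in each library and was not rescaled, placed WT siGL2 libraries at -0.09, -0.14 and -0.04, with the third library no longer apart, and TNRC6AB-/- siGL2 libraries above them at 0.15, 0.17 and 0.18. Protein-coding genes took 45.04 to 48.7% of TPM in WT siGL2 and 51.1 to 51.4% in TNRC6AB-/- siGL2 libraries. As these are bulk samples, fewer cells that express a gene and less RNA of it per cell cannot be told apart.

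**Figure D1:**
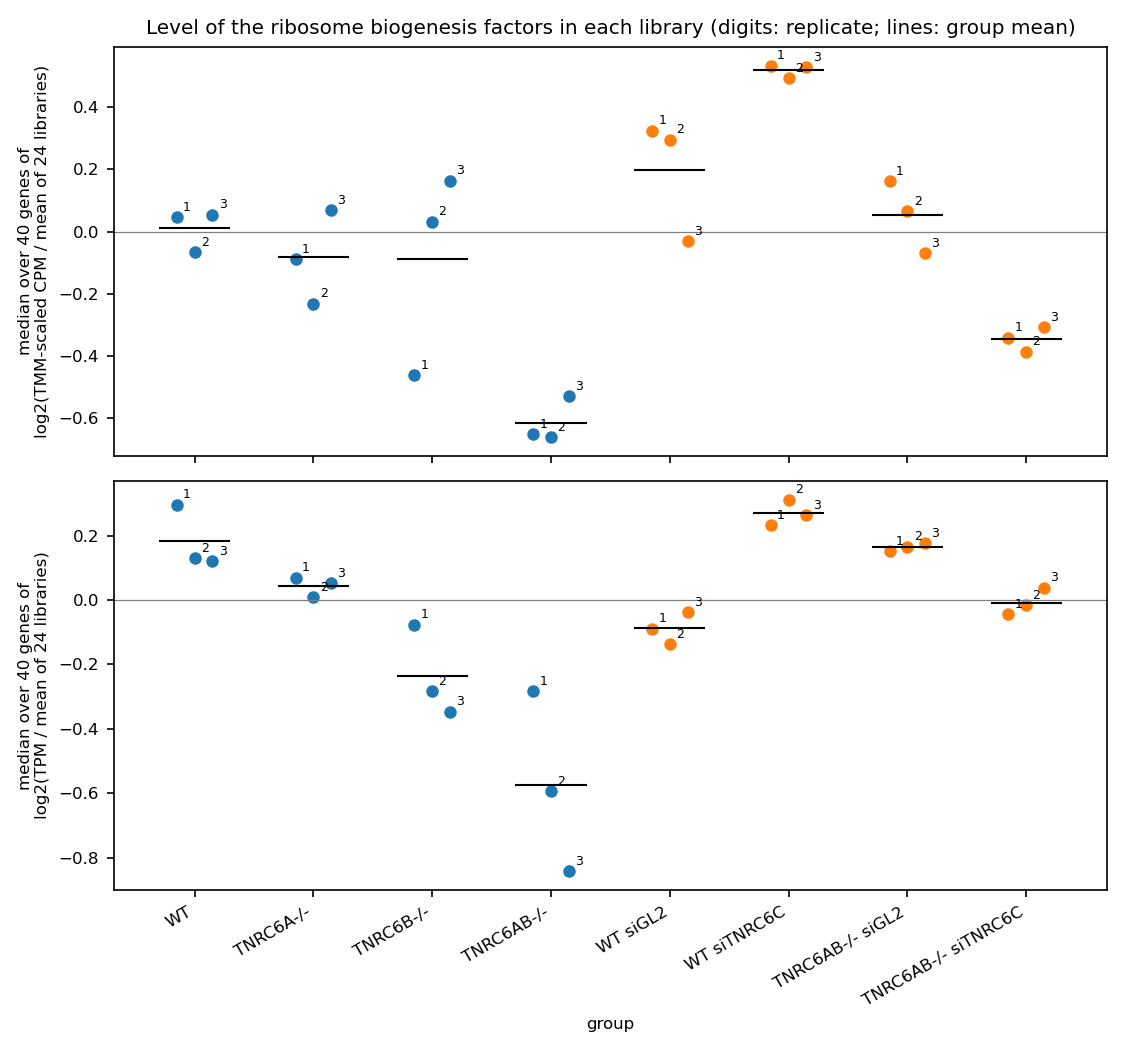
Median over the 40 ribosome biogenesis factors of the log2 ratio of a gene's level in a library to its mean over 24 libraries, for each library (points, digits give the replicate) of the 8 groups, from TMM-scaled CPM (top) and from TPM (bottom); lines are group means. TNRC6AB-/- libraries lie lowest on the CPM scale and overlap TNRC6B-/- libraries on the TPM scale, WT siTNRC6C libraries lie above WT siGL2 libraries on both scales, and the mean of TNRC6AB-/- siGL2 lies below that of WT siGL2 on the CPM scale only, where the libraries of these 2 groups overlap.

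Loss of TNRC6A or of TNRC6B alone left most factors within the spread between libraries. In TNRC6A-/- cells 2 of 40 fell and none rose (edgeR quasi-likelihood test, Benjamini-Hochberg adjusted p below 0.05), where 8.52% rose and 5.47% fell among all 24153 genes, and 6 of 40 had an unadjusted p below 0.05. GAR1, a box H/ACA snoRNP protein, had 38.9, 38.7 and 35.5 CPM in WT libraries and 27.7, 25.5 and 27.9 in TNRC6A-/- libraries (log2 difference of -0.48 with SE 0.127, adjusted p = 0.0137, edgeR). FBL encodes fibrillarin, the methyltransferase of the box C/D snoRNP, and its levels of 181, 125 and 192 CPM in WT and 133, 105 and 122 in TNRC6A-/- libraries overlapped (log2 difference of -0.47 with SE 0.151, adjusted p = 0.0418, edgeR). The FBL call was lost without replicate 1 of WT (adjusted p = 0.137, edgeR), replicate 3 of WT (adjusted p = 0.166), replicate 2 of TNRC6A-/- (adjusted p = 0.173) or replicate 3 of TNRC6A-/- (adjusted p = 0.0944), and that of GAR1 without replicate 2 of TNRC6A-/- (adjusted p = 0.0644). NOP58, the partner of NOP56, did not pass (log2 fold change -0.33 (SE 0.122, adjusted p = 0.0710), edgeR), though its 117, 112 and 119 CPM in TNRC6A-/- libraries lay below the 148, 141 and 149 of WT. The median log2 fold change of the 40 was -0.09, beside 0.0151 over all genes tested, and -0.12 without replicate 2 of WT. It was -0.03 without replicate 2 of TNRC6A-/-, with 21 of 40 below 0, -0.04 without replicate 3 of WT, with 25 below 0, and -0.15 without replicate 3 of TNRC6A-/-, with 36 below 0.

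In TNRC6B-/- cells none of the 40 passed in either direction in edgeR, where 2.2% rose and 0.94% fell among all genes, and 4 had an unadjusted p below 0.05. DESeq2 called none as well. HEATR1, an SSU processome protein that also promotes RNA polymerase I transcription, came closest, with 132, 155 and 168 CPM against 176, 204 and 171 in WT (log2 difference of -0.27 with SE 0.0957, adjusted p = 0.138, edgeR). RRP1B, a nucleolar protein of 60S assembly, differed by -0.29 (SE 0.132, adjusted p = 0.302), and TSR1, a GTPase-like protein of the 40S precursor, by -0.25 (SE 0.118, adjusted p = 0.312), both on the log2 scale in edgeR. Replicate 1 of TNRC6B-/- held the lowest value of the group in all 3 genes. Without that library the median of the 40 moved from -0.08 to 0.05, 28 of 40 lay above 0, and DKC1, the pseudouridine synthase of the box H/ACA snoRNP, was the 1 member called. On TPM all 40 lay below 0 and 16 were called, where 0.302% rose and 3.05% fell among all genes. The median of all genes was also below 0 on TPM, at -0.198.

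With both paralogs lost, 35 of the 40 factors fell and none rose. TNRC6AB-/- cells stood at a median of 0.655 times the WT level over the 40 (median log2 fold change -0.61, range -1.31 to 0.23). Among all genes 17.2% rose and 12.3% fell in this comparison, and their median was 0.00667. The 5 that did not pass were UTP18, BYSL, UTP20, RRS1 and NOP10.

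Members of all 7 roles fell. Both RNA polymerase I subunits fell, POLR1B by 0.97 and POLR1A, the catalytic subunit, by 0.34 on the log2 scale. All 3 box C/D proteins fell (median log2 fold change -0.62), led by FBL, which had 60.05, 60.9 and 79.9 CPM against 181, 125 and 192 in WT (log2 difference of -1.31 with SE 0.154, adjusted p = 7.33e-07, edgeR). Among the 4 box H/ACA proteins 3 fell (median -0.61), and NOP10, the smallest, was at -0.22 without passing. All 4 abundant nucleolar proteins fell (median -0.71), the RNA helicase DDX21 by 1.11 and NPM1 by 0.73. Of 9 SSU processome genes 7 fell (median -0.66). HEATR1 had the smallest adjusted p of the 40, with 101, 96.9 and 97.7 CPM in TNRC6AB-/- against 176, 204 and 171 in WT, and the groups lay far apart (log2 difference of -0.89 with SE 0.0965, adjusted p = 2.32e-07, edgeR). UTP20, at 0.23, was the only member above 0 (adjusted p = 0.120, edgeR), with 81.6, 73.3 and 61.2 CPM overlapping 66.7, 54.8 and 62.6 in WT. Of the 5 genes of 40S assembly and export 4 fell (median -0.60). Of the 13 genes of 60S assembly 12 fell (median -0.54). GNL3, the nucleolar GTPase nucleostemin, had 80.5, 72.5 and 99.1 CPM against 185, 182 and 221 (log2 difference of -1.22 with SE 0.167, adjusted p = 5.66e-06, edgeR), and BOP1, which acts with PES1 and WDR12 in a complex for 28S rRNA maturation, fell by 1.28. In FBL, HEATR1 and GNL3 every TNRC6AB-/- library lay below every WT library, which their choice by adjusted p in this comparison favours.

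The count for TNRC6AB-/- cells was 22 when a log2 fold change beyond 0.6 was also required, and 30 to 34 fell with any 1 of the 6 libraries left out. Without replicate 3 of TNRC6AB-/- 33 fell and UTP20 was called higher. MYC RNA was lower in the same cells, with 42.1, 48.3 and 77.2 CPM against 300.4, 228 and 314 (log2 difference of -2.33 with SE 0.230, adjusted p = 6.42e-08, edgeR). Markers of cells foreign to the line were higher in sum there as given above. Of the 7 of them tested, 1 was called higher and 0 lower, with a median log2 fold change of 0.0149. The part of MYC or of these markers in the fall of the factors was not tested. Of the 13 members with an E-box 9 fell (median -0.50), and of the 20 with a promoter but no E-box all 20 fell (median -0.64).

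**Figure D2:**
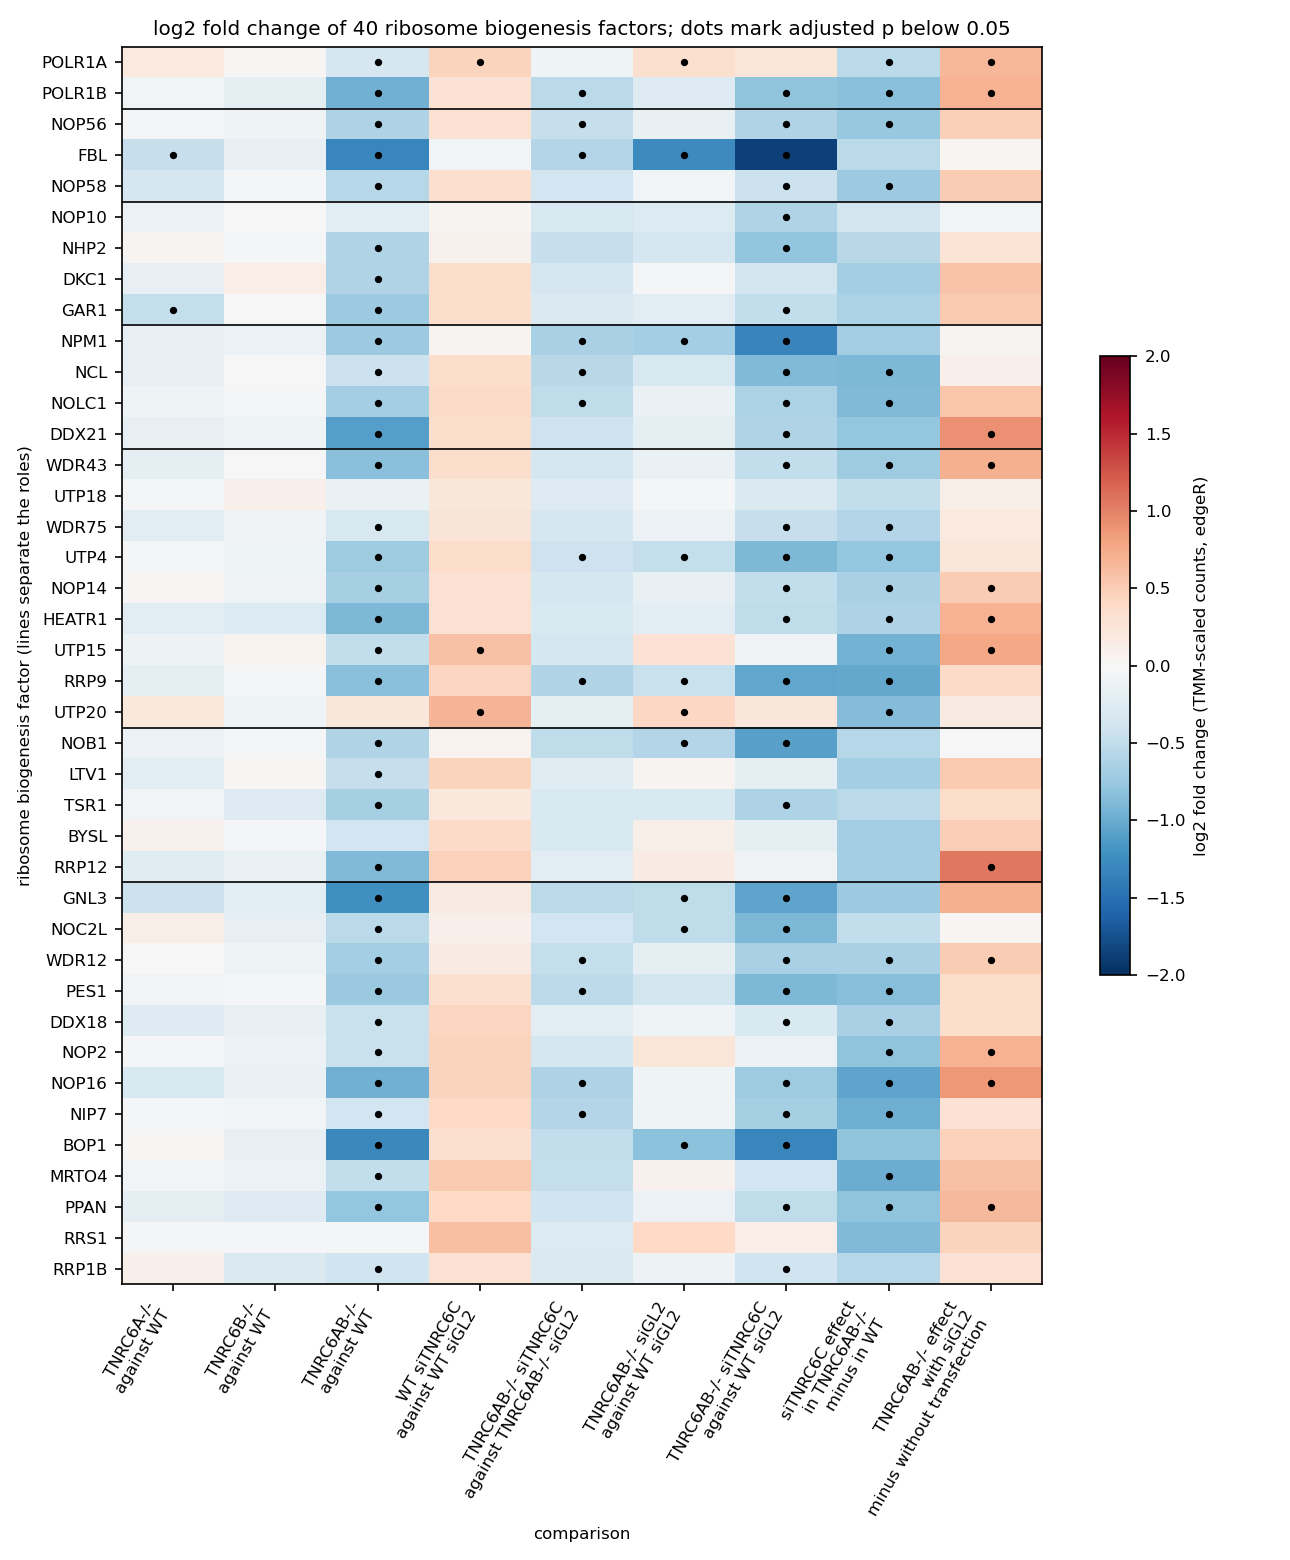
Log2 fold change of the 40 factors (rows, ordered by role and then by level) in the 7 comparisons and 2 differences between comparisons (columns), from TMM-scaled counts in edgeR; dots mark an adjusted p below 0.05. The TNRC6AB-/- column is blue in 39 of 40 rows and dotted in 35, and the siTNRC6C columns of WT and TNRC6AB-/- cells have opposite colours in every row but that of FBL.

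Silencing of TNRC6C in otherwise wild-type cells went with slightly higher levels of the factors. Against WT siGL2, 39 of 40 lay above 0 in WT siTNRC6C cells, at a median of 1.27 times the control level (median log2 fold change 0.34, beside 8.19e-04 over all genes). Of these, 3 passed the test, all of them higher, where 0.397% rose and 0.534% fell among all genes, and 28 had an unadjusted p below 0.05.

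UTP20 rose from 69.7, 69.4 and 59.6 CPM in WT siGL2 to 105, 101 and 110.5 in WT siTNRC6C libraries (log2 difference of 0.67 with SE 0.109, adjusted p = 0.00241, edgeR). POLR1A had 137, 132 and 119.9 CPM with siGL2 and 179, 175 and 178 with siTNRC6C (log2 difference of 0.45 with SE 0.0973, adjusted p = 0.0265, edgeR), and UTP15, a part of the SSU processome that is also needed for rRNA transcription, 51.5, 49.5 and 39.6 and 69.9, 71.4 and 69.7 (log2 difference of 0.59 with SE 0.136, adjusted p = 0.0356, edgeR). In all 3 genes the siTNRC6C libraries lay above every siGL2 library, which their choice by adjusted p in this comparison favours. Role by role, the medians were near each other, from 0.22 for the box H/ACA proteins to 0.40 for the 60S assembly genes, none of whose members passed. FBL was the 1 member below 0, at -0.05, and NPM1 stood at 0.05 (adjusted p = 0.950, edgeR). MYC RNA had 268, 259 and 276 CPM against 270.4, 278 and 212 (log2 difference of 0.08 with SE 0.218, adjusted p = 0.947, edgeR).

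The number of calls differed between fits. A fit of only the 6 libraries compared called 29 of 40, all higher, where 7.72% rose and 7.74% fell among all genes. Limma voom with a weight for each group called 27, all higher, where 4.21% rose and 3.74% fell. Leaving out any 1 of the 6 libraries left only UTP20 called, with adjusted p from 0.0121 to 0.0273 (edgeR). On TPM 3 members were called and UTP20 was not (adjusted p = 0.264, limma), with all 40 above 0. Without replicate 3 of WT siGL2, 34 of 40 lay above 0 and the median was 0.24. That library held 6.27% of its member reads in transcripts annotated with a retained intron, beside 5.04 and 4.74% in the other WT siGL2 libraries. Of the reads of all genes it held 4.33% in such transcripts, beside 3.28 and 3.33%.

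In TNRC6AB-/- cells the same duplex pool went with lower levels. All 40 factors lay below 0 in TNRC6AB-/- siTNRC6C against TNRC6AB-/- siGL2 cells (33 of 40 on TPM), at a median of 0.764 times the control level (median log2 fold change -0.39, beside -0.0187 over all genes), and 12 of 40 fell with none rising. Among all genes 2.19% rose and 4.37% fell here.

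WDR12, the partner of BOP1 and PES1, had 87.02, 78.4 and 76.1 CPM with siGL2 and 57.3, 56.9 and 58.8 with siTNRC6C (log2 difference of -0.48 with SE 0.108, adjusted p = 0.0101, edgeR). NCL fell from 1375, 1283 and 1135 to 851, 831 and 899.5 CPM (log2 difference of -0.56 with SE 0.127, adjusted p = 0.0114, edgeR) and NIP7, which helps process late precursor rRNA in 60S assembly, from 69.2, 63.5 and 59.5 to 43.7, 41.1 and 43.9 (log2 difference of -0.58 with SE 0.136, adjusted p = 0.0132, edgeR). The largest change was that of NPM1, from 1304, 1220.4 and 1073 to 757, 746 and 798 CPM (log2 difference of -0.64 with SE 0.155, adjusted p = 0.0146, edgeR). Groups did not overlap in these 4 genes, which their choice by adjusted p or size of change in this comparison favours. The other 8 that fell were NOP56 and FBL of the box C/D snoRNP, NOLC1, a nucleolar chaperone of snoRNPs, RRP9 and UTP4 of the SSU processome, POLR1B, PES1 and NOP16. No gene of the box H/ACA snoRNP and none of 40S assembly and export passed, with role medians of -0.33 and -0.31. MYC stood at 78.04, 73.7 and 79.4 CPM against 132, 129 and 113 (log2 difference of -0.69 with SE 0.221, adjusted p = 0.0599, edgeR).

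These calls rest on few libraries. No member was called without replicate 1 of TNRC6AB-/- siGL2 or without replicate 1 or 2 of TNRC6AB-/- siTNRC6C, 1 was called without replicate 2 of TNRC6AB-/- siGL2 and 4 without replicate 3 of TNRC6AB-/- siTNRC6C, while a fit of the 6 compared libraries alone called 39. All 40 stayed below 0 in each of these fits, and the median ranged from -0.43 to -0.34 when 1 library was left out.

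Set side by side, the 2 siTNRC6C contrasts, which share no library, had opposite signs in 39 of 40 factors with TMM. On TPM all 40 lay above 0 in WT cells, while 33 lay below 0 and 7 above 0 in TNRC6AB-/- cells. With TMM FBL was below 0 in both contrasts, and no member was called in both. The difference itself, the siTNRC6C effect in TNRC6AB-/- minus that in WT cells, was below 0 in all 40 (median -0.70 on the log2 scale, range -1.05 to -0.37, beside -0.0141 over all genes). It passed in 22 of 40, all negative, where 0.903% rose and 2.13% fell among all genes, and in 9 of these 22 neither contrast had passed by itself.

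The test of the difference was strongest for UTP20 (log2 difference of -0.86 with SE 0.153, adjusted p = 0.00409, edgeR), whose libraries stood at 89.4, 88.02 and 87.1 CPM with siGL2 and 76.8, 76.7 and 78.2 with siTNRC6C in TNRC6AB-/- cells and rose in WT cells. NIP7 followed (log2 difference of -0.98 with SE 0.192, adjusted p = 0.00826, edgeR), with 73.9, 73.2 and 56.6 CPM in WT siGL2 and 91.3, 88.9 and 88.1 in WT siTNRC6C libraries. NCL had 1775, 1667 and 1317 and 2031, 2022 and 2011 CPM in these WT groups (log2 difference of -0.91 with SE 0.180, adjusted p = 0.00899, edgeR). NOP16, a 60S assembly protein, had the largest difference (log2 difference of -1.05 with SE 0.246, adjusted p = 0.0225, edgeR), from 41.01, 39.5 and 30.1 to 50.2, 47.8 and 52.1 CPM in WT and from 36.3, 36.5 and 30.9 to 22.7, 21.7 and 23.5 in TNRC6AB-/- cells. By role, the difference passed in 8 of 9 SSU processome genes, 8 of 13 genes of 60S assembly, both RNA polymerase I subunits, 2 of 3 box C/D proteins and 2 of 4 abundant nucleolar proteins. It passed in 0 of 4 box H/ACA proteins and 0 of 5 genes of 40S assembly and export, whose medians were -0.59 and -0.69. For MYC the difference was -0.77 (SE 0.310, adjusted p = 0.175) in edgeR. The knockdown differed as well, since TNRC6C RNA fell by 1.35 on the log2 scale in WT and by 2.60 in TNRC6AB-/- cells, from a control level 2.23 times as high. Its part in the difference was not tested.

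Leaving out 1 library moved the count to between 6 and 23. It was 7 without replicate 3 of WT siGL2, 6 and 11 without replicates 1 and 2 of TNRC6AB-/- siGL2, 10, 8 and 12 without replicates 1 to 3 of TNRC6AB-/- siTNRC6C, and 11, 13 and 10 without those of WT siTNRC6C. NOP16 lost its call in 8 of the 12 such fits, with adjusted p up to 0.0852 (edgeR), while all 40 differences stayed below 0 in each of them and on TPM, where 7 were called and the median was -0.50.

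**Figure D3:**
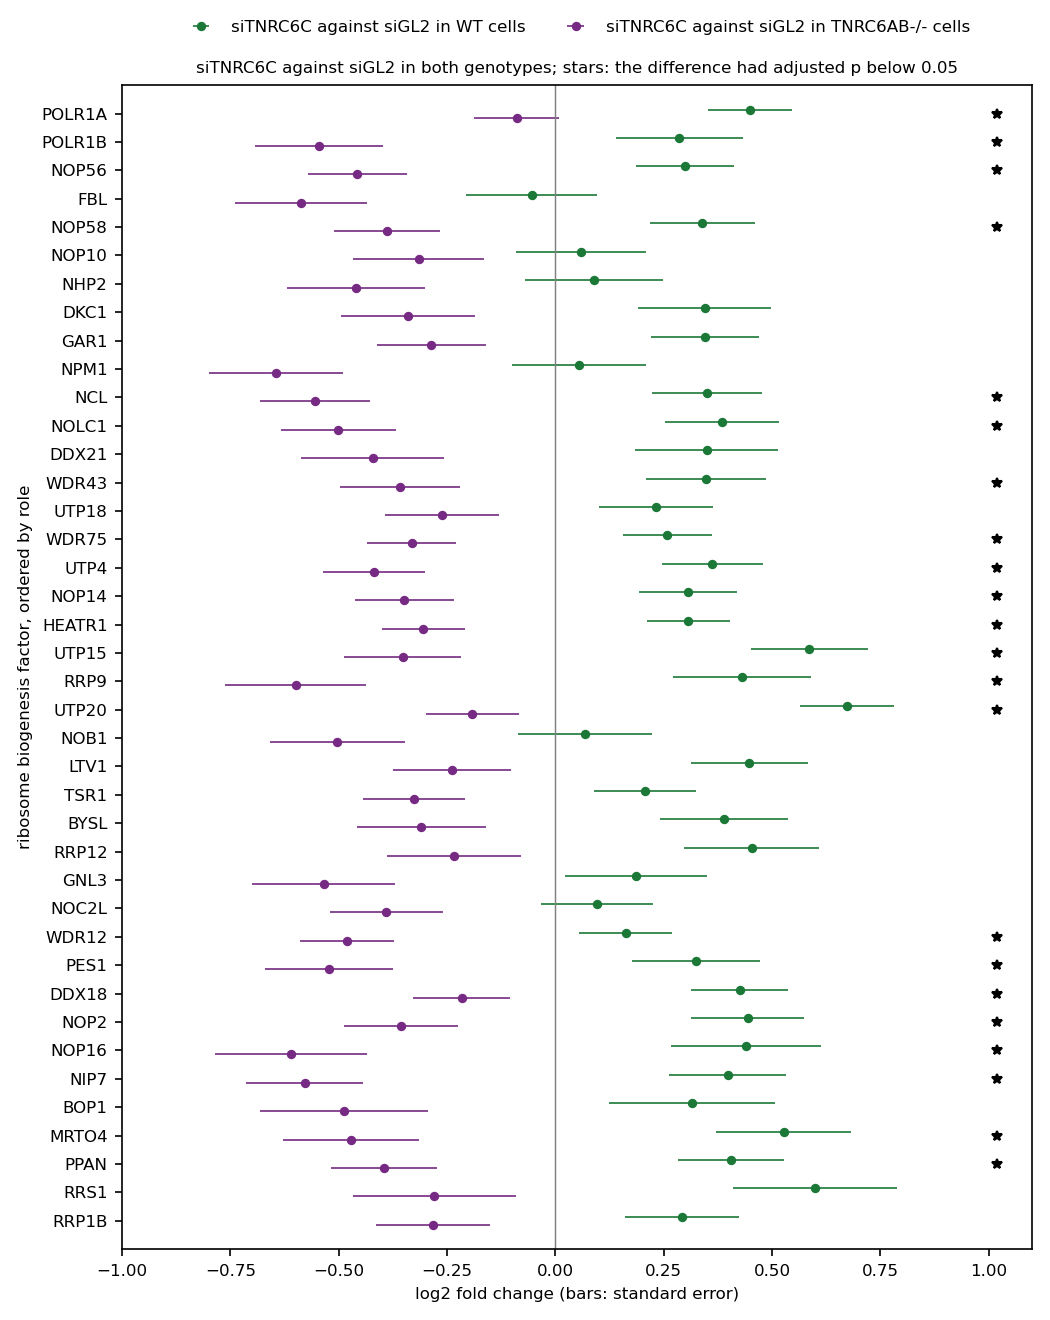
Log2 fold change (points, TMM-scaled counts in edgeR) with standard error (bars) of siTNRC6C against siGL2 for the 40 factors, ordered by role. WT cells are green and TNRC6AB-/- cells purple. Stars mark the 22 whose difference between the genotypes had an adjusted p below 0.05. All purple points lie below 0, and all green points except that of FBL lie above 0.

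Under the control duplex the gap between the genotypes was narrower and mixed. In TNRC6AB-/- siGL2 against WT siGL2 cells 8 of 40 fell and 2 rose with TMM, where 9.17% rose and 12.5% fell among all genes. The TMM median log2 fold change was -0.14, beside -0.00319 over all genes. On TPM 14 of 40 rose and 2 fell, where 19.4% rose and 3.20% fell among all genes. With TMM the median was -0.25 without replicate 3 of WT siGL2, where 11 fell and 1 rose, and -0.0750 without replicate 1, where 6 fell and 2 rose. On TPM 33 of 40 lay above 0, with the median of all genes at 0.239 and that of the 40 at 0.273. FBL was called lower on both scales and had 104, 101 and 86.8 CPM against 270.0, 255 and 183 (log2 difference of -1.28 with SE 0.153, adjusted p = 1.65e-06, edgeR). NPM1 stood at 1304, 1220.4 and 1073 CPM against 2115, 2031 and 1597 (log2 difference of -0.68 with SE 0.155, adjusted p = 0.00262, edgeR), a call lost on TPM (adjusted p = 0.192, limma). BOP1 had 51.3, 45.9 and 44.7 CPM against 92.4, 90.96 and 66.2 (log2 difference of -0.81 with SE 0.193, adjusted p = 0.00353, edgeR). The 2 that rose on the CPM scale were UTP20 (log2 fold change 0.41) and POLR1A (0.33), both higher in every TNRC6AB-/- siGL2 library than in any WT siGL2 library, though neither was called without the third siGL2 libraries. UTP4, NOC2L, NOB1, GNL3 and RRP9 were the others that fell. All 8 are among the 35 lower in untransfected TNRC6AB-/- cells, a comparison that shares no library with this one. As those 35 are most of the 40, this overlap says little.

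Whether the effect of the genotype differed with transfection was tested directly. The TNRC6AB-/- effect with siGL2 minus that without transfection was above 0 in 39 of 40 (median 0.48 on the log2 scale, beside -0.0384 over all genes) and passed in 12, all positive, where 2.22% rose and 6.5% fell among all genes. HEATR1 had 157, 151 and 146 CPM in TNRC6AB-/- siGL2 against 185, 177 and 160.0 in WT siGL2 libraries (log2 difference of 0.69 with SE 0.135, adjusted p = 0.00282, edgeR), a smaller gap than without transfection. POLR1A was at 172, 158 and 159.8 and 137, 132 and 119.9 CPM in those groups (log2 difference of 0.66 with SE 0.138, adjusted p = 0.00424, edgeR). RRP12 showed the largest difference (log2 difference of 1.06 with SE 0.221, adjusted p = 0.00444, edgeR), with 59.1, 84.4 and 49.3 CPM in WT, 37.3, 32.6 and 34.3 in TNRC6AB-/-, 45.4, 46.2 and 43.2 in WT siGL2 and 50.9, 48.4 and 52.6 in TNRC6AB-/- siGL2 libraries, so the TNRC6AB-/- level was the lower without transfection and the higher with siGL2. The other 9 were UTP15, DDX21, PPAN, NOP2, WDR43, NOP16, POLR1B, WDR12 and NOP14. MYC moved with them (log2 difference of 1.30 with SE 0.312, adjusted p = 0.0110, edgeR), and its part was not tested. The count was 7 without replicate 3 of WT siGL2, 7 and 6 without replicates 1 and 2 of TNRC6AB-/- siGL2, and 8 without replicate 3 of WT or replicate 2 of WT siGL2. Transfected and untransfected cells differ in lipid and duplex together, and TNRC6AB-/- cells were seeded more densely than WT cells for transfection. Estimated mean fragment lengths were 165 to 192 bases in untransfected and 197 to 214 bases in transfected libraries. These differences cannot be told apart.

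TNRC6AB-/- siTNRC6C and WT siGL2 cells differ in genotype and in duplex. With TMM 29 of 40 fell and none rose, where 17% rose and 25.2% fell among all genes. The TMM median log2 fold change was -0.55, beside 0.00713 over all genes. On TPM 10 of 40 rose and 7 fell, where 43.5% rose and 6.23% fell among all genes. Without replicate 3 of WT siGL2 32 fell with TMM and the median was -0.66. FBL had 63.4, 62.5 and 68.5 CPM against 270.0, 255 and 183, 0.274 times the control level (log2 difference of -1.87 with SE 0.156, adjusted p = 3.27e-09, edgeR). NPM1 had 757, 746 and 798 against 2115, 2031 and 1597 CPM (log2 difference of -1.32 with SE 0.157, adjusted p = 5.97e-07, edgeR), and UTP4, a scaffold of the early SSU processome, 57.8, 56.3 and 56.8 against 115, 114 and 88.5 (log2 difference of -0.89 with SE 0.118, adjusted p = 2.63e-06, edgeR). No library of either group overlapped the other in these 3 genes, which their choice by adjusted p in this comparison favours. All 4 abundant nucleolar proteins and all 3 box C/D proteins fell, 6 of 9 SSU processome genes and 10 of 13 of 60S assembly, but 2 of 5 genes of 40S assembly and export, NOB1 and TSR1. On TPM 22 of 40 lay above 0 (median 0.0675), with the median of all genes at 0.386, so the median of the 40 minus that of all genes was -0.32 on TPM and -0.56 with TMM, on the log2 scale. The call of UTP4 was lost on TPM (adjusted p = 0.236, limma).

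**Figure D4:**
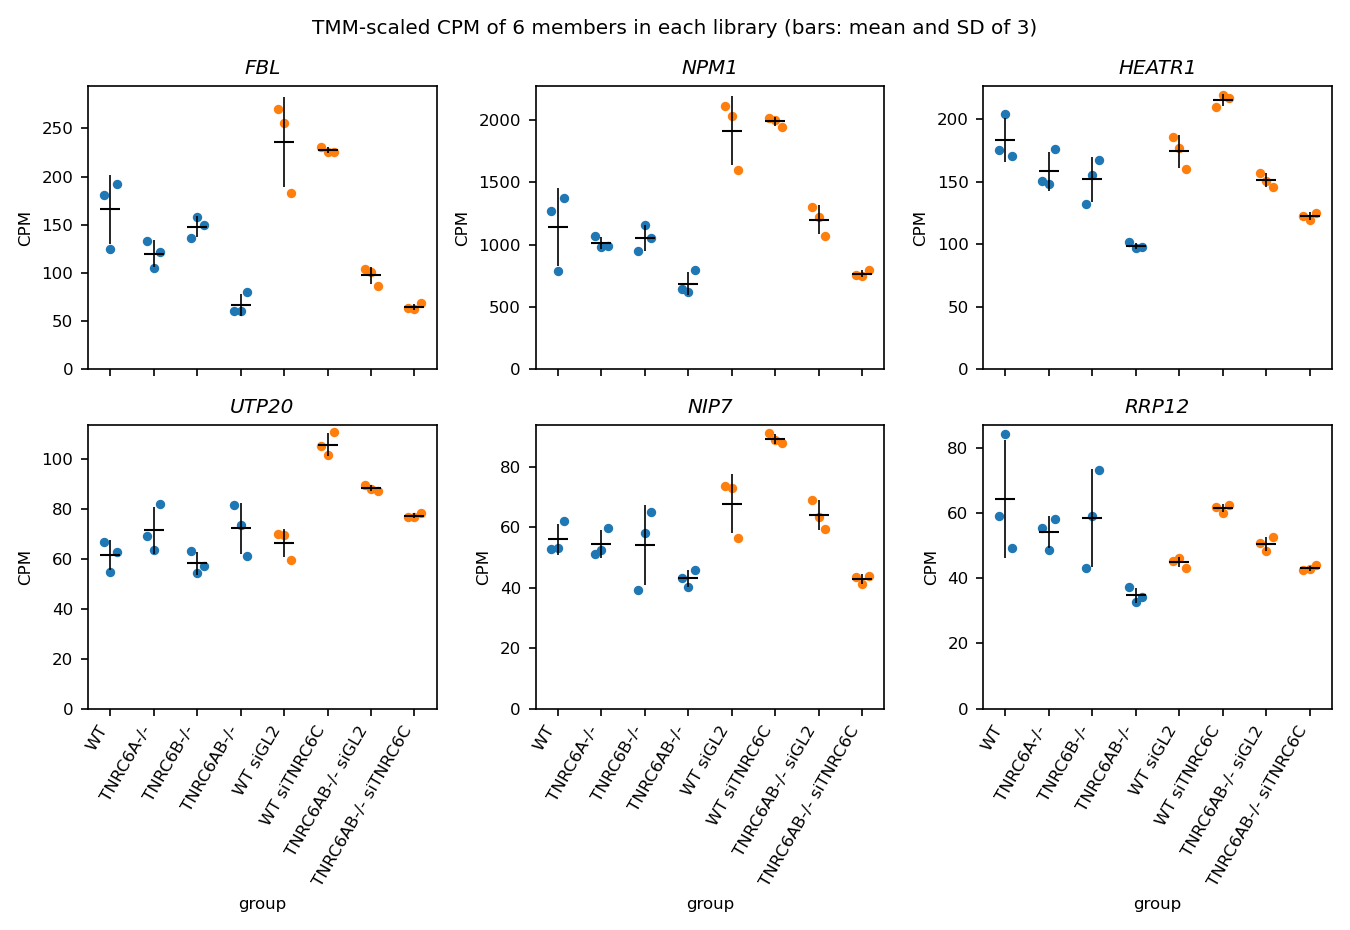
TMM-scaled CPM of FBL, NPM1, HEATR1, UTP20, NIP7 and RRP12 in each library (points; blue without and orange with transfection) of the 8 groups, with the mean and SD of 3 libraries. FBL is low in all 3 TNRC6AB-/- groups, HEATR1 is lowest in untransfected TNRC6AB-/- cells, and UTP20 is highest in WT siTNRC6C libraries.

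Genes of the same pathway outside the 40 were counted in 4 further lists. In TNRC6AB-/- against WT cells 24 of 41 other SSU processome and 40S assembly genes fell and 2 rose (median log2 fold change -0.42), 31 of 44 other 60S assembly genes fell and 2 rose (-0.48), and 9 of 14 other RNA polymerase I subunits and factors fell and 1 rose (-0.48). The log2 fold change of WDR3 of the SSU processome was -1.27 (adjusted p = 6.77e-07) and that of URB1, a 60S assembly protein, -0.88 (adjusted p = 4.04e-06), both in edgeR. Genes of snoRNP assembly and rRNA trimming fell in 11 of 29 (median -0.16), and the 1 that rose was ERI1, a 3' exonuclease of histone mRNA and rRNA, at 1.26 (adjusted p = 5.32e-08).

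With siTNRC6C in WT cells these lists had medians above 0, 0.28 for the SSU and 40S list with 2 of 41 higher and 0.24 for the 60S list with 3 of 44 higher, GRWD1 among them at 0.58 (adjusted p = 0.00538). In TNRC6AB-/- cells their medians were -0.30 with 8 of 41 lower and -0.32 with 4 of 44 lower. The acetyltransferase NAT10, which acts on rRNA of the small subunit, fell there, with a log2 fold change of -0.60 (adjusted p = 7.18e-04). The difference between the genotypes was called in 18 of 41 SSU and 40S genes, 11 of 44 60S genes, 6 of 14 polymerase I genes and 6 of 29 snoRNP assembly and trimming genes, all negative. Those counts were 4, 4, 1 and 1 on TPM and 7, 8, 3 and 4 with counts scaled from TPM and transcript length. Neither setting called any SSU, 40S or 60S gene of these lists higher with siTNRC6C in WT cells, and on TPM 2 SSU and 40S genes and 0 60S genes were lower with it in TNRC6AB-/- cells. All adjusted p are from edgeR over all genes.

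Ribosomal protein genes, whose products the factors assemble into subunits, were counted for comparison. Of 86 cytosolic ribosomal protein genes tested, without those on the Y chromosome, 76 fell in TNRC6AB-/- against WT cells (median -0.69) and 1 rose. With siTNRC6C in WT cells none was called and their median was -0.05 with TMM and 0.01 on TPM, where the medians of the 40 factors were 0.34 and 0.37. For siTNRC6C in TNRC6AB-/- cells the median was -0.46 with 11 lower, and the difference between genotypes was called in none (edgeR; median -0.42). In TNRC6AB-/- siGL2 against WT siGL2 cells 79 of 86 fell (median -0.75, and 64 with median -0.34 on TPM), where 8 of the 40 factors did. With TMM 15 of 78 mitochondrial ribosomal proteins fell and 3 rose in TNRC6AB-/- cells, where 12.3% of all genes fell. In TNRC6AB-/- siTNRC6C against WT siGL2 cells 63 of 78 fell, where 25.2% of all genes did. On TPM 12 rose and 5 fell there, where 43.5% rose and 6.23% fell among all genes. For siTNRC6C their TMM median was 0.15 in WT cells, with none called, and -0.36 in TNRC6AB-/- cells, with 14 lower. The difference between genotypes was called in 9 of 78, all negative (median -0.51), where 2.13% of all genes fell. Opposite signs were thus not particular to the factors. Of 10 tested genes of the MYC, MAX and MXD network 3 fell in TNRC6AB-/- cells, MYC and its paralog MYCL among them (log2 fold change -1.75 (adjusted p = 0.00135) for MYCL, edgeR). The 1 that rose was MXD4, which competes with MYC for MAX (log2 fold change 1.32 (adjusted p = 4.53e-07), edgeR), and none of the 10 was called for siTNRC6C in either genotype.

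**Figure D5:**
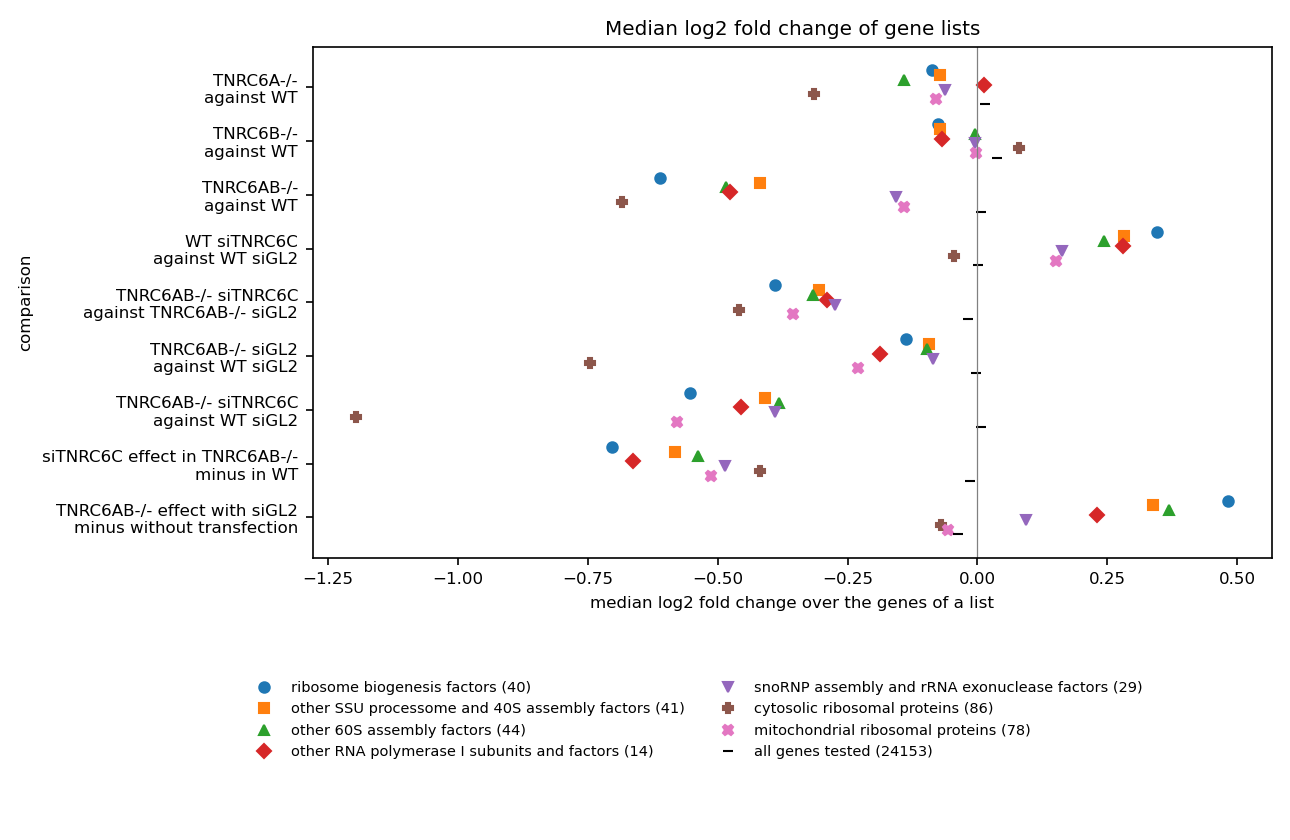
Median log2 fold change (TMM-scaled counts, edgeR) over the genes of each list (symbols, number of genes tested in parentheses) in the 7 comparisons and 2 differences. The 40 factors, the 4 lists of further biogenesis factors and mitochondrial ribosomal proteins lie above 0 for siTNRC6C in WT and below 0 in TNRC6AB-/- cells. Cytosolic ribosomal proteins lie at -0.05 (0.01 on TPM) and -0.46.

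A part of the reads of the factors was assigned to transcripts annotated with a retained intron. The share was 6.50 to 7.42% in WT, 5.40 to 7.72% in TNRC6AB-/-, 4.74 to 6.27% in WT siGL2, 5.26 to 5.40% in WT siTNRC6C, 5.40 to 6.57% in TNRC6AB-/- siGL2 and 6.39 to 6.75% in TNRC6AB-/- siTNRC6C libraries. It reached 8.70% in replicate 1 of TNRC6B-/-, against 5.50 and 4.47% in the others. The 2 siTNRC6C groups did not overlap each other, and the 2 siGL2 groups did. On the CPM scale the library with the highest share had the lowest factor level in WT, TNRC6A-/-, TNRC6B-/-, both siGL2 groups and TNRC6AB-/- siTNRC6C. On TPM that library had the lowest level in TNRC6A-/- alone and the highest in TNRC6B-/-, TNRC6AB-/- and both siGL2 groups. Over all genes the share also differed between the 2 siTNRC6C groups, at 3.48 to 3.63% in WT and 4.32 to 4.55% in TNRC6AB-/- libraries. It was 5.74% in replicate 1 of TNRC6B-/-, against 3.72 and 3.38% in the others, so these patterns were not particular to the factors. The part of either share in the results was not tested.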

How the data were processed

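RNA of HCT116 cells was sequenced in 24 libraries (8 groups of 3). The authors aligned reads to hg38 with STAR 2.5.3a and quantified transcripts with Salmon 0.11.0, per the submitters' processing notes. The deposited tables give, per transcript and library, an estimated count of reads and a TPM value (a level corrected for transcript length, with the same total in each library), both made by the authors. RNA isolation is described differently in the labels and the methods.

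Transcripts were joined by identifier to GENCODE 29 (199368 of 199612 matched), and estimated counts and TPM were summed per gene. Summed estimated counts were rounded to whole numbers. The 24 libraries were fitted together in edgeR 4.0.16 (R 4.3.3; TMM scaling, filterByExpr, quasi-likelihood F test, 8 group means, 16 residual degrees of freedom). The Benjamini-Hochberg adjustment ran over all 24153 genes, calls were made at an adjusted p below 0.05, and the SE of a log2 fold change was its size over the square root of F. Tests are two-sided. Totals of 28144290 to 42689320 reads set the precision. The fit was also run on simulated counts with known changes. These gave each gene the same spread in all groups, whereas the real BCV ran from 0.0521 to 0.273 between groups. The shares called below therefore do not give the power of the real comparisons. Of log2 changes of 0.5 it called 29% in TNRC6AB-/- against WT and 37% for siTNRC6C in WT cells. For the difference of siTNRC6C effects it called 5%, and 3 of 100 estimates had the wrong sign. Of log2 changes of 1 it called 92, 87 and 59% in the same order.

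Full values are given for the 3 members with the smallest adjusted p and the member with the largest change in each comparison, and for the 3 highest and 3 lowest by TPM; other members are named by count. The members and gene lists were chosen with earlier results of these data known. Alternatives were DESeq2 1.42.0, its size factors, limma 3.58.1 (voom with group weights), no filter, counts scaled from TPM and length, the compared libraries alone, a replicate block and each library left out. Leaving out replicate 3 of both siGL2 groups and limma on log2(TPM + 0.5) were added after seeing the data.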

Additional observations from a re-analysis of the deposited data

Results flagged for a closer look

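The siTNRC6C effect differed between the genotypes, by the test of the difference itself, in 22 of the 40 factors, all with the lower value in TNRC6AB-/- cells. Among the members with full values the differences on the log2 scale were -0.86 for UTP20, -0.98 for NIP7, -0.91 for NCL and -1.05 for NOP16.

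The effect of the TNRC6AB-/- genotype differed between siGL2-transfected and untransfected cells in 12 of the 40, all with the higher value after transfection. The differences on the log2 scale were 0.69 for HEATR1, 0.66 for POLR1A and 1.06 for RRP12.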

How the results depend on the processing

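Counts are of members called, given first as reported. In TNRC6A-/- cells the count of 2 became 4 on TPM, with length-scaled counts or with no filter, 1 with voom, with the compared libraries alone or with the replicate block, and 0 beyond a log2 change of 0.6 (0 to 2 with 1 library left out). In TNRC6B-/- cells 0 became 16 on TPM (0 to 1). In TNRC6AB-/- cells 35 became 28 with the compared libraries alone and 22 beyond 0.6 (30 to 34). For siTNRC6C in WT cells 3 became 10 with DESeq2, 27 with voom, 29 with the compared libraries, 5 with no filter, and 1 without the third siGL2 libraries or beyond 0.6 (1 in each fit with 1 library left out). For siTNRC6C in TNRC6AB-/- cells 12 became 20 with DESeq2, 4 on TPM, 39 with voom or the compared libraries and 2 beyond 0.6 (0 to 10). Among all genes 13.5% rose and 21.8% fell there with voom, and 16.8% and 22.9% with the compared libraries. For TNRC6AB-/- siGL2 against WT siGL2 10 became 18 with the compared libraries, 3 beyond 0.6 and 16, mostly higher, on TPM (7 to 12). With the compared libraries 6 of the 40 rose and 12 fell, where 19.9% rose and 17.5% fell among all genes. For TNRC6AB-/- siTNRC6C against WT siGL2 29 became 19 beyond 0.6 and 17, of which 10 higher, on TPM (27 to 32). The difference of siTNRC6C effects went from 22 to 34 with DESeq2, 7 on TPM, 5 without the third siGL2 libraries and 40 with voom or the compared libraries (6 to 23). For that difference 7.94% rose and 20.7% fell among all genes with the compared libraries, and 5.71% and 14.4% with voom. The difference with transfection went from 12 to 35 on TPM, 5 without the third siGL2 libraries and 20 with no filter (6 to 13). On TPM 9.12% rose and 0.869% fell for it among all genes. Without replicate 1 of TNRC6B-/- and replicates 2 and 3 of WT its median was 0.50. That fit assumes that the 1 WT library left varies like the other groups. The main fit shares a spread for each gene between untransfected groups (BCV 0.139 to 0.273) and transfected groups (BCV 0.0521 to 0.145). Voom with group weights lets the spread differ between groups. The part of this in the counts was not tested, nor was any other cause apart from fewer samples or genes. Whether replicate numbers mark a shared batch was not settled. In no comparison did every pair of same-numbered libraries correlate above 0.1 in their deviations from group means. For TNRC6AB-/- siGL2 and WT siGL2 these correlations were 0.219, 0.005 and 0.354 for replicates 1 to 3. The replicate block gave 0, 35, 2, 12, 10, 29, 20 and 10 calls in the other comparisons, in the order above. Of 420 alternatives of 25 single-member results, 359 kept direction and call, 61 lost the call and 0 reversed. Precision is limited by 3 libraries a group.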
